A study of Mus musculus with 5 samples.

Results

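The genes described here are Prdm4 and 9 further genes with known roles in heat production by fat cells, namely Prdm16, Ppargc1a, Ppargc1b, Ucp1, Ucp2, Cidea, Dio2, Esrra and Bmp7. Every probe set that the platform annotation assigns to one of these 10 genes and to no other was taken, which gave 21 of the 45037 probe sets on the arrays and covered 9 of the 10 genes, out of 18193 genes named by single-gene probe sets. No probe set carried Ucp2 as its single gene, so Ucp2 was not analysed here. Prdm4, Ppargc1b, Ucp1 and Cidea had 1 probe set each, Esrra 2, Dio2 and Bmp7 3 each, Prdm16 4 and Ppargc1a 5. Below, the probe sets of a gene are numbered from the brightest to the dimmest by their mean log2 intensity over the 5 arrays.

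The samples were adipocytes differentiated from C3H10T1/2, an established mouse mesenchymal cell line that accumulates fat after adipogenic induction. They were treated for 6 h with butein, with sulfuretin or with the solvent DMSO, and, as a separate pair, with resveratrol or with the solvent sample that the labels name as its control, called DMSO1 here. Each of the 5 groups was 1 Affymetrix array of total RNA, and the labels give no doses and no genotype beyond the cell line. The labels do not say whether the arrays came from separate cultures. Butein is a chalcone, sulfuretin an aurone and resveratrol a stilbene, all plant polyphenols, and the series description states that the profiles were compared to look for shared factors for or against adipogenesis. With 1 array per group the differences below have no error estimate from replicates and no p-values. Differences are log2 intensity with the compound minus log2 intensity on its own solvent array, and a probe set was called at 2-fold or, as a second criterion, at 1.5-fold.

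Brown and beige adipocytes burn fuel as heat through UCP1, a carrier of the inner mitochondrial membrane that lets protons back into the matrix without making ATP. The programme is built by transcriptional regulators, among them the zinc finger protein PRDM16 and the coactivators PGC-1alpha (Ppargc1a) and PGC-1beta (Ppargc1b), which act with the nuclear receptor ERRalpha (Esrra) on mitochondrial genes. BMP7 is a secreted growth factor that drives brown fat development, DIO2 converts thyroxine into active thyroid hormone inside the cell, and CIDEA is a lipid droplet protein used as a brown fat marker. PRDM4 belongs to the same PR-domain family as PRDM16, and butein has been studied as a compound that raises Prdm4 in white fat cells.

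The intensities carried a strong lower limit. The median probe set read 6.85 on the butein, sulfuretin and DMSO arrays, and 11.5 and 11.1 on the resveratrol and DMSO1 arrays, and a probe set at or below the median of its array is called near background here. A probe set was counted in a comparison when it exceeded that median on at least 1 of the 2 arrays. Many probe sets had the same value on paired arrays: of 45037, 48.5% were identical on the butein and DMSO arrays, 47.4% on the sulfuretin and DMSO arrays and 52.0% on the resveratrol and DMSO1 arrays, within 1e-06 on the log2 scale. None was identical on the DMSO1 and DMSO arrays, whose sorted values differed by a median of 0.52 on the log2 scale, against at most 0.0023 within the other pairs, so levels were not set against each other across the pairs as deposited. Of the adipocyte markers, 7 of the 8 measured genes were above the median on every array. Adipoq, the adiponectin gene, read 6122 with butein, 6976 with sulfuretin and 7202 with DMSO, and 6134 with resveratrol against 6751 with DMSO1, while Fabp4, a fatty acid carrier gene, read 7338 or more on each array. The leptin gene Lep was near background throughout, at 3.56 to 4.21. The summed intensity of the adipocyte markers was 20441 to 23766 over the 5 arrays. It was 482 to 539 for undifferentiated mesenchymal markers (2 of 4 above the median on each array), 58.4 to 77.2 for osteoblast and chondrocyte markers (2 or 3 of 4) and 49.4 to 84.8 for macrophage and blood cell markers (2 or 3 of 5). The skeletal muscle markers (2 of 5) summed to 68.7 to 94.6 with butein, sulfuretin and DMSO, and to 193 and 210 with resveratrol and DMSO1. Most of each sum was Acta1, at 45.3 to 71.1 with butein, sulfuretin and DMSO, and at 163 and 179 with resveratrol and DMSO1. Myod1, Myog and Myf5 were near background on all arrays. The deposited scales differ, so these sums were not compared across the pairs.

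RefSeq promoter windows (GRCm38.p6, 250 bases before to 50 after a start site) were examined for 7 of the 10 genes and covered 8 start sites. They were searched on both strands for the antioxidant response element TGACNNNGC, the estrogen-related receptor element TCAAGGTCA and the cyclic AMP response element TGACGTCA, which all hold the letters TGAC on one strand or the other. Among all 32851 windows in the table, 12.4% held the antioxidant response element, 0.423% the estrogen-related receptor element and 1.79% the cyclic AMP response element. The windows of Prdm4 are shown because it was the member with the largest increase, and that of Dio2 because its gene is known for induction by cyclic AMP. Capitals mark the motif matches, and the sequences run 5′ to 3′ on the minus strand of chromosomes 10 and 12.
Prdm4 chr10:85916680-85916979: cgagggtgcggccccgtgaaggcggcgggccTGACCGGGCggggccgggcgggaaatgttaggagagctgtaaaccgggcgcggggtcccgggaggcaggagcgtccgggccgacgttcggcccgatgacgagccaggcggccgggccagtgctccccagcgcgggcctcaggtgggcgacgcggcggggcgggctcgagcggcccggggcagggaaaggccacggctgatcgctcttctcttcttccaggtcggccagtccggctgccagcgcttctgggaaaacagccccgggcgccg
Prdm4 chr10:85916937-85917236: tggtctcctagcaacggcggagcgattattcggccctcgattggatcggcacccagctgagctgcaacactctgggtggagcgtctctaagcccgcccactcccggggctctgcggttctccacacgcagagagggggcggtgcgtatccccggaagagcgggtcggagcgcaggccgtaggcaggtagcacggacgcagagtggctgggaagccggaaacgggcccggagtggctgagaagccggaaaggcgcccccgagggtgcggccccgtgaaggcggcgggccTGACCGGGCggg
Dio2 chr12:90738989-90739288: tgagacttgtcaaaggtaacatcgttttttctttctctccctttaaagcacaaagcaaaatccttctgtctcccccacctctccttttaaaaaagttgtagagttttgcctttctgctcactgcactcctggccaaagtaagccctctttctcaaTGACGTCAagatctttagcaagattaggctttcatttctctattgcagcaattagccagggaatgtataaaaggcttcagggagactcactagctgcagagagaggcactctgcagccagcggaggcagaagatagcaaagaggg
Both Prdm4 windows hold the same antioxidant response element match, TGACCGGGC, since they overlap. Its first base lies 219 bases before one start site and 38 bases after the other. The Dio2 window holds the cyclic AMP response element with its first base 95 bases before the start site. Of the 8 windows, 4 held the antioxidant response element (both of Prdm4 and 1 each of Prdm16 and Ucp2), 1 the cyclic AMP response element and 0 the estrogen-related receptor element. A match describes letters in the window and was not tied to the values below.

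**Figure D1:**
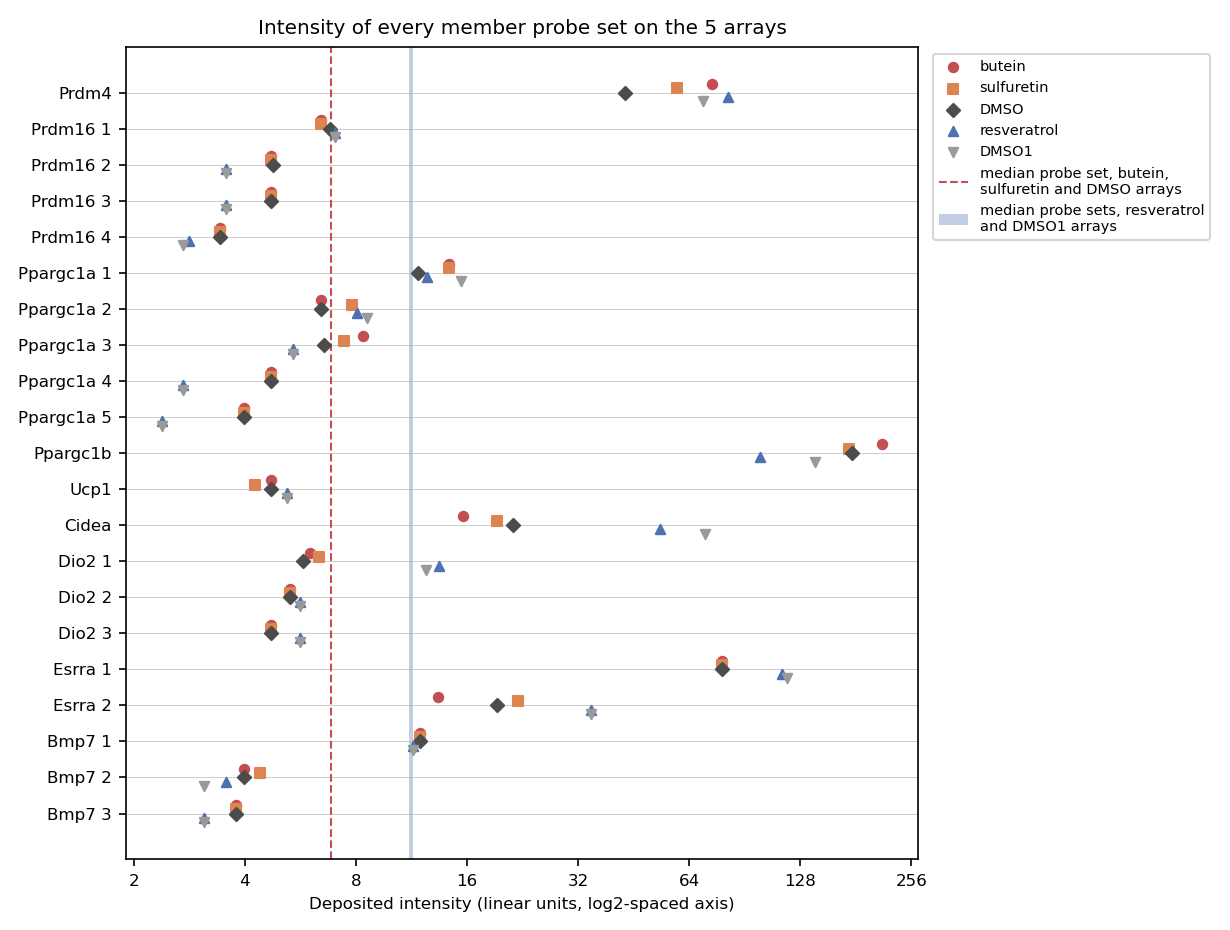
Deposited intensity (horizontal, linear units on a log2-spaced axis) of each of the 21 member probe sets (rows, numbered within a gene from the brightest) on the 5 arrays, with the median probe set of the arrays as a dashed line and a band. Prdm4, Ppargc1b, Cidea, both Esrra probe sets and the brightest of Ppargc1a lie to the right of the medians on all arrays, while Ucp1 and all 4 Prdm16 probe sets stay at or below them.

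Of the 21 probe sets, 6 exceeded the median on all 5 arrays, 4 did so on some arrays and 11 on none. The 6 belong to Prdm4, Ppargc1b, Cidea, Esrra (both) and Ppargc1a (probe set 1). The 4 were Ppargc1a probe sets 2 and 3, Dio2 probe set 1 and Bmp7 probe set 1. The 11 read between 3.42 and 6.80 on the butein, sulfuretin and DMSO arrays and from 2.39 to 7.03 with resveratrol and DMSO1. A second background level came from 83 probe sets of olfactory, vomeronasal and taste receptor genes, whose 95th percentile was 6.02 to 6.34 on the first trio of arrays and 9.44 and 8.56 on the resveratrol and DMSO1 arrays. By that level 7 member probe sets were above background on every array, the seventh being Bmp7 probe set 1, and 10 on none.

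Prdm4 was higher with each compound than with its solvent, and no other counted member probe set was higher by as much in any of the comparisons. Its single probe set (NCBI gene 72843) read 73.8 with butein and 59.3 with sulfuretin, against 42.8 with DMSO. It read 81.8 with resveratrol, against 69.7 with DMSO1. Each treated array lay above its own solvent array, by 1.73-fold with butein (log2 difference 0.79), 1.39-fold with sulfuretin (0.47) and 1.17-fold with resveratrol (0.23). Among all counted single-gene probe sets, differences at least this high were found in 3.49% of 19729 with butein, 2.45% of 19700 with sulfuretin and 3.45% of 19944 with resveratrol. Of 10677 genes counted in every comparison, 54, Prdm4 included, were at least as high as Prdm4 with all 3 compounds. The members, Prdm4 among them, were chosen with earlier results of these data known. Its place among the members and these shares are therefore descriptive and give no independent support. Butein and sulfuretin share the DMSO array, so a low or high value on it moves both of these differences together.

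Prdm4 held nearly the same rank on both solvent arrays, at percentile 78.1 of all probe sets on DMSO and on DMSO1. It lay at percentile 83.7 with butein, 81.4 with sulfuretin and 80.3 with resveratrol. After the 5 arrays were quantile normalized together, Prdm4 differed by 0.001 on the log2 scale between DMSO1 and DMSO, while the compounds' differences to their own solvent arrays were 0.68, 0.41 and 0.27. Across all counted probe sets the solvent arrays were much farther apart on that scale, with a median absolute log2 difference of 0.37, and 31.2% of 21313 differed by at least 1.5-fold. The closeness of the solvent arrays for Prdm4 is a single pair of values and gives no error for the treated arrays.

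**Figure D2:**
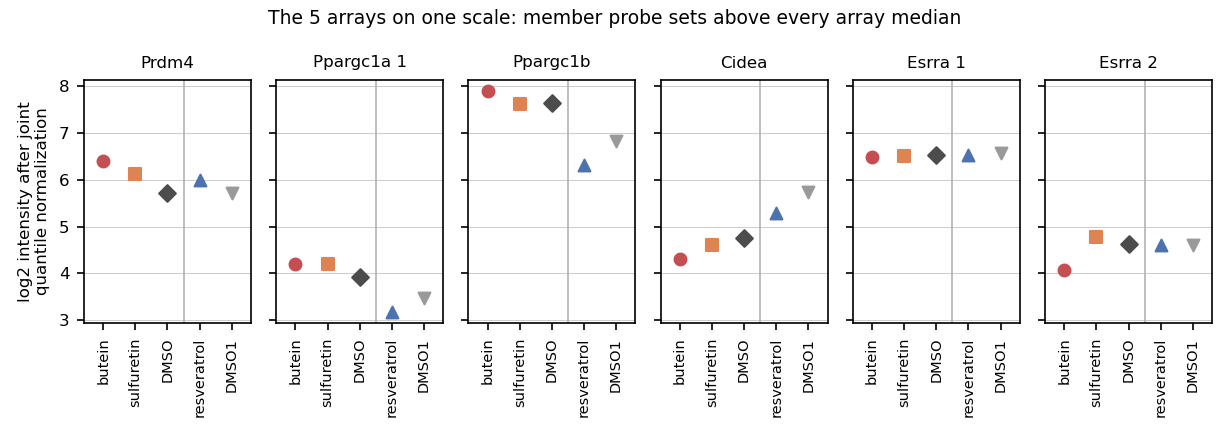
Log2 intensity after joint quantile normalization (vertical) of the 6 member probe sets above the median on every array, with 1 point per array and a vertical line that separates the butein, sulfuretin and DMSO arrays from the resveratrol and DMSO1 arrays. For Prdm4 both solvent arrays sit level and each treated array lies above them, whereas Ppargc1b and Cidea differ more between DMSO1 and DMSO (by -0.81 and 0.96) than between any compound and its own solvent array.

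The coactivator gene Ppargc1b was above the median on all 5 arrays. Ppargc1b read 213 with butein and 174 with sulfuretin, against 177 with DMSO, so it was 1.20-fold higher with butein and nearly level with sulfuretin (log2 difference -0.02). With resveratrol Ppargc1b read 99.8, against 140 with DMSO1, which is 1.41-fold lower (log2 difference -0.49). In that comparison 0.642% of the counted probe sets had a difference at least as low as that of Ppargc1b. On the joint scale the DMSO1 array lay 0.81 below the DMSO array for Ppargc1b, a larger distance than its difference with resveratrol (-0.51), with butein (0.25) or with sulfuretin (-0.02).

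Ppargc1a was measured by 5 probe sets, of which the brightest lay above the median on all arrays. That probe set read 14.3 with butein and 14.3 with sulfuretin, the same value on both, against 11.8 with DMSO (log2 difference 0.28 for each). It read 12.4 with resveratrol, against 15.4 with DMSO1 (log2 difference -0.31, 1.24-fold lower). The value 14.3 is shared by 247 probe sets on the butein array and 250 on the sulfuretin array. The probe set lay at percentile 62.0 of all probe sets on DMSO, 64.9 with butein and 65.0 with sulfuretin.

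Probe set 2 of Ppargc1a read 6.42 with butein and 7.83 with sulfuretin, against 6.42 with DMSO. It read 8.07 with resveratrol, against 8.56 with DMSO1, and exceeded the median on the sulfuretin array alone. Probe set 3 read 8.37 with butein and 7.43 with sulfuretin, against 6.55 with DMSO (log2 differences 0.35 and 0.18), and 5.42 on both the resveratrol and the DMSO1 array. It exceeded the median on the butein and sulfuretin arrays alone, so a filter on dim values kept it through the arrays where it was higher. Probe sets 4 and 5 had identical values within each pair of arrays and lay between 2.39 and 4.71 on all 5. Ppargc1a was therefore higher than in DMSO by the brightest probe set with butein and sulfuretin and lower than in DMSO1 with resveratrol, in each case by less than 1.5-fold.

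Esrra, the gene of the orphan nuclear receptor that PGC-1 coactivators work through, was level on its brighter probe set. That probe set read 78.6 with butein and 78.6 with sulfuretin, against 78.6 with DMSO, an identical value on the 3 arrays. Identical values were common above the median too: with butein 33.7% of all counted probe sets were higher, 37.5% lower and the rest identical. The tie is therefore not read as a measured lack of change. It read 114 with resveratrol, against 118 with DMSO1 (log2 difference -0.05). The dimmer probe set of Esrra read 13.4 with butein and 22.0 with sulfuretin, against 19.3 with DMSO (log2 differences -0.53 and 0.19), and 34.8 with both resveratrol and DMSO1. The probe sets thus disagree for butein, where one was equal to DMSO and the other 1.44-fold lower.

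The uncoupling gene itself was near background. Ucp1 read 4.71 with butein and 4.27 with sulfuretin, against 4.71 with DMSO, and 5.21 with resveratrol, against 5.21 with DMSO1. The value 4.71 was shared by 1402 probe sets on the butein array and 1373 on the DMSO array. Ucp1 was below both background levels on all 5 arrays, so these arrays give no level for it and no direction.

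Cidea, the lipid droplet protein gene, was lower with each compound. It read 15.6 with butein and 19.3 with sulfuretin, against 21.3 with DMSO, which is 1.37-fold and 1.10-fold lower (log2 differences -0.45 and -0.14). It read 53.5 with resveratrol, against 70.4 with DMSO1, which is 1.32-fold lower (-0.40). In the resveratrol comparison 1.20% of the counted probe sets were at least as low, and with butein 5.20%. Of 7 counted adipocyte markers, 6 were lower with butein (median log2 difference -0.23), beside 38.8% of all counted genes. With resveratrol 7 of 7 were lower (median -0.07), beside 36.6% of all. With sulfuretin, where Cidea was lower too, 1 of 7 markers was lower and 6 were higher (median 0.02), beside 33.9% and 36.3% of all. The part of the marker differences in the Cidea values was not tested. In cell culture RNA, fewer adipocytes and less RNA per adipocyte cannot be told apart. On the joint scale Cidea was 0.96 higher on DMSO1 than on DMSO, more than its difference with any compound.

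Dio2, the thyroid hormone activating enzyme gene, was near background with butein, sulfuretin and DMSO. Its brightest probe set read 6.02 with butein and 6.36 with sulfuretin, against 5.75 with DMSO, all below the median of their arrays. The same probe set read 13.4 with resveratrol, against 12.4 with DMSO1, both above the median of their arrays (log2 difference 0.12). The other 2 probe sets lay between 4.71 and 5.66 and were identical within each pair of arrays.

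Prdm16 and Bmp7 gave little or no signal. The 4 Prdm16 probe sets read between 3.42 and 6.80 on the butein, sulfuretin and DMSO arrays and from 2.72 to 7.03 with resveratrol and DMSO1, all at or below the medians. The brightest of them, which was above the sensory receptor level on some arrays, read 6.42 with butein and 6.42 with sulfuretin, against 6.80 with DMSO, and 7.03 with both resveratrol and DMSO1. Bmp7 probe set 1 read 11.9 on the butein, sulfuretin and DMSO arrays and 11.5 with resveratrol and DMSO1, identical within each of these sets and equal to the median on the resveratrol array. The other 2 Bmp7 probe sets lay between 3.11 and 4.40 on all arrays.

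**Figure D3:**
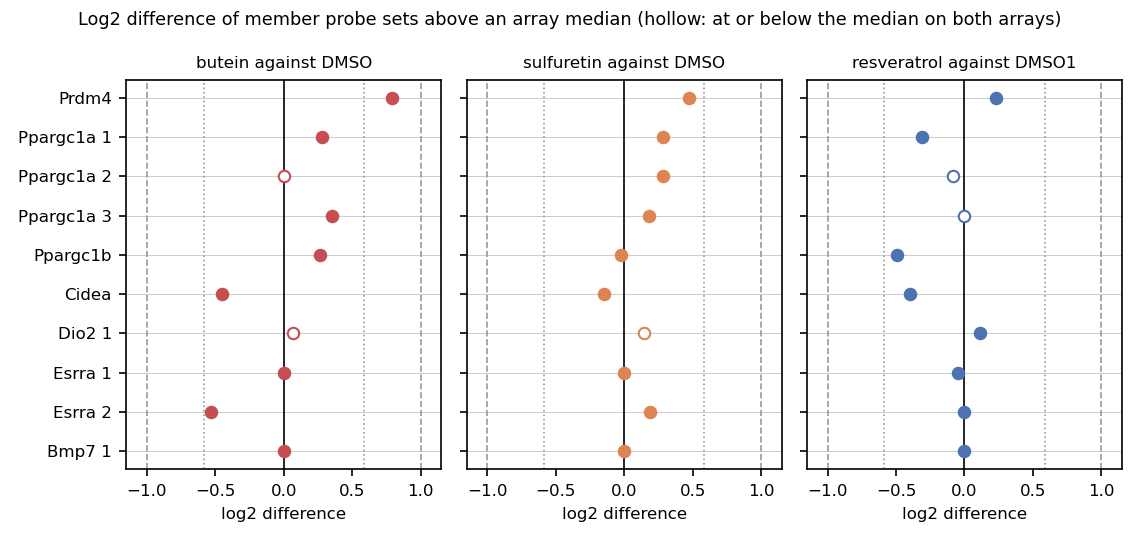
Log2 difference to the own solvent array (horizontal) of the 10 member probe sets that exceeded an array median, for butein, sulfuretin and resveratrol from left to right, with filled points where the probe set was counted in that comparison and dotted and dashed lines at 1.5-fold and 2-fold. Prdm4 with butein is past the dotted line, and the other points lie inside it.

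Counted together, few member probe sets passed a criterion. With butein, 0 of 8 counted member probe sets passed 2-fold, where 2.15% of all counted probe sets were at least 2-fold higher and 0.411% lower. At 1.5-fold 1 of the 8, Prdm4, was higher and 0 were lower, beside 5.63% and 2.81% of all. With sulfuretin 0 of 9 passed 2-fold (all probe sets 0.218% higher and 0.0558% lower) and 0 passed 1.5-fold (1.45% and 0.594%). With resveratrol 0 of 8 passed 2-fold (0.0652% and 0.0602%) and 0 passed 1.5-fold (0.346% and 0.361%). With so few counted probe sets, 1 call at the 1.5-fold criterion is close to what the share among all probe sets gives. With butein Prdm4, Ppargc1a probe sets 1 and 3 and Ppargc1b were higher, Cidea and Esrra probe set 2 lower, and Esrra probe set 1 and Bmp7 probe set 1 equal to DMSO, where 33.7% of all counted probe sets were higher and 37.5% lower. With sulfuretin Prdm4, Ppargc1a probe sets 1, 2 and 3 and Esrra probe set 2 were higher, Ppargc1b and Cidea lower, and Esrra probe set 1 and Bmp7 probe set 1 equal to DMSO, beside 34.1% higher and 34.1% lower of all. Ppargc1a probe set 3 with butein and sulfuretin, and probe set 2 with sulfuretin, were counted only through the treated array, so the filter fixed their direction. With resveratrol Prdm4 and Dio2 were higher, Ppargc1a, Ppargc1b, Cidea and Esrra probe set 1 lower, and Esrra probe set 2 and Bmp7 probe set 1 equal to DMSO1, beside 31.7% higher and 36.1% lower of all. The brightest probe sets of Ppargc1a and Ppargc1b thus lay above DMSO with butein and below DMSO1 with resveratrol, a contrast between separate pairs of arrays that was not tested.

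**Figure D4:**
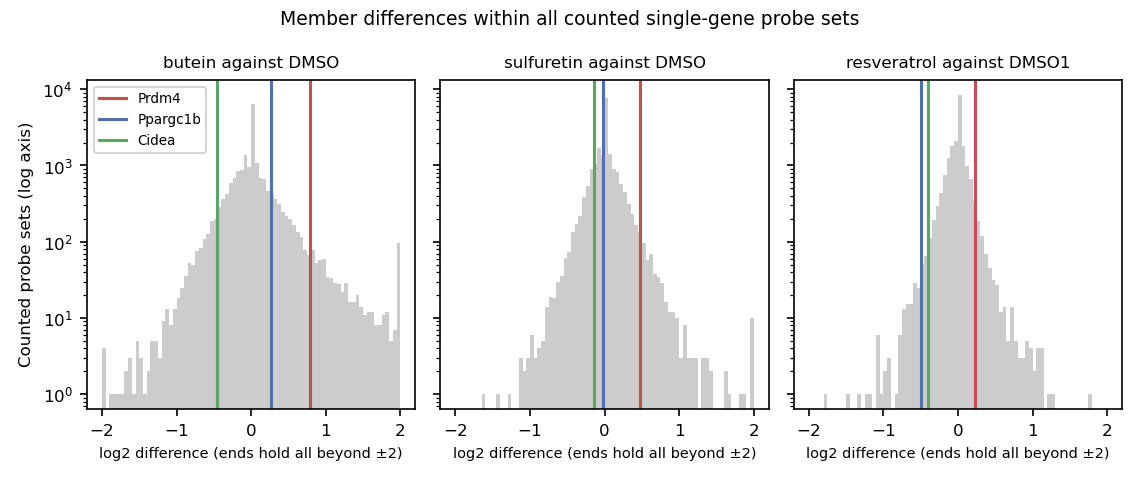
Number of counted single-gene probe sets (vertical, log axis) by log2 difference to the own solvent array (horizontal, end bins hold all values beyond 2 in size) for butein, sulfuretin and resveratrol, with Prdm4, Ppargc1b and Cidea as lines. The spread of all probe sets is widest with butein and narrowest with resveratrol, so the 0.79 of Prdm4 with butein and its 0.23 with resveratrol lie at a like share of probe sets, 3.49% and 3.45%.

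On the joint scale, the difference of a counted member probe set to its solvent array can be set against the distance between both solvent arrays for the same probe set. With butein the differences of Prdm4 and of both Esrra probe sets were larger than that distance, the brighter of which differed by -0.04. With sulfuretin those of Prdm4 and Esrra probe set 2 were larger. Ppargc1a probe set 2 was also past it with sulfuretin, but it was counted only through the sulfuretin array, where it is high, so nothing is read from it. With resveratrol that of Prdm4 was larger and those of the other counted member probe sets were not. The distance between the solvent arrays is 1 value per probe set. For Prdm4 that distance was 0.001, and for Esrra probe sets 1 and 2 it was 0.030 and 0.035. Almost any difference would be larger than these, so nothing is concluded from the Prdm4 and Esrra differences being past them. Over all counted probe sets the median distance was 0.37, more than the 0.27 of Prdm4 with resveratrol. The share of all probe sets past their own distance is not given here.

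The genes whose 3 differences lay nearest to those of Prdm4, by Euclidean distance among 10291 genes counted in every comparison after the members and genes with clone or predicted names were left out, were Nfxl1, Zdhhc18, Nr1d2, Pdgfa and Map2k3, at distances of 0.06 to 0.09 on the log2 scale. Nfxl1 differed by 0.81 with butein, 0.53 with sulfuretin and 0.24 with resveratrol. Nr1d2, which encodes a nuclear receptor of the circadian clock, differed by 0.71, 0.45 and 0.24. Pdgfa, a growth factor gene, differed by 0.84, 0.42 and 0.28. Likeness here rests on 3 values, of which those for butein and sulfuretin share the DMSO array.

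Around these members, 7 lists of pathway genes were described by 1 probe set per gene, the brightest. Of all counted genes with butein, 5.41% were at least 1.5-fold higher and 2.66% lower, and 2.18% and 0.321% at 2-fold. With sulfuretin these shares were 1.46% and 0.407%, and 0.208% and 0.052% at 2-fold. With resveratrol they were 0.356% and 0.401%, and 0.0802% and 0.0713% at 2-fold. The median log2 difference of all counted genes was 0 in each comparison.

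In the PRDM family and PRDM4 partner list, 7 of 15 genes were counted with butein and 1 passed either criterion. This was Prdm2, the gene of a PR-domain histone methyltransferase, which read 195 with butein, against 52.6 with DMSO (3.70-fold higher). A second Prdm2 probe set read 68.3 with butein, against 10.9 with DMSO, and the third was near background. The brightest probe set read 48.0 with sulfuretin, against 52.6 with DMSO, and 65.4 with resveratrol, against 64.4 with DMSO1. It was thus high on the butein array alone. The second probe set read 14.7 with sulfuretin (1.35-fold higher than DMSO), so the Prdm2 probe sets disagree for sulfuretin. Prmt5, the arginine methyltransferase known as a partner of PRDM4, read 71.0 with butein and 68.7 with sulfuretin, against 67.7 with DMSO, and 149 with both resveratrol and DMSO1. The receptor gene Ngfr, whose product binds PRDM4, was near background on all arrays, at 4.52 to 8.56. The median of the list was 0 in each comparison.

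Among partners and opponents of PRDM16 and PGC-1, 25 of 29 genes were counted with butein, with a median of 0. Of the 25, 4 were at least 1.5-fold higher and 1 lower, beside 5.41% and 2.66% of all counted genes. Sirt1, the deacetylase gene whose product acts on PGC-1alpha, read 123 with butein and 61.6 with sulfuretin, against 40.3 with DMSO (3.05-fold and 1.53-fold higher), and 93.4 with resveratrol, against 69.9 with DMSO1 (1.34-fold higher). Cebpb, a transcription factor gene whose product forms a complex with PRDM16, read 1937 with butein and 1062 with sulfuretin, against 648 with DMSO (2.99-fold and 1.64-fold higher), and 991 with resveratrol, against 974 with DMSO1. The other 2 genes higher with butein, outside the naming rule and named after their values were seen, were Zfp516 (1.98-fold), a zinc finger activator of Ucp1, and the nuclear receptor gene Ppard (1.66-fold). A second Zfp516 probe set read 12.1 with butein, against 9.04 with DMSO (1.34-fold higher, short of 1.5-fold). The second Ppard probe set was near background on all arrays. Mef2c, a muscle transcription factor gene, read 15.5 with butein and 13.6 with sulfuretin, against 26.7 with DMSO (1.72-fold and 1.96-fold lower), and 41.5 with resveratrol, against 44.1 with DMSO1. Probe sets 2, 3 and 4 of Mef2c were lower by 1.87-fold, 1.34-fold and 1.29-fold with butein. With sulfuretin they were lower by 1.64-fold, 1.22-fold and 1.33-fold. Probe set 5 was near background with butein, sulfuretin and DMSO. With sulfuretin 3 of 25 passed 1.5-fold, Cebpb and Sirt1 higher and Mef2c lower, beside 1.46% higher and 0.407% lower of all counted genes. With resveratrol 0 of 24 passed, beside 0.356% and 0.401% of all. The medians with sulfuretin and resveratrol were 0 and -0.02.

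The mitochondrial biogenesis list of ERR and NRF1 targets had 21 of 22 genes counted. With butein 15 of the 21 were lower and 5 higher, with a median of -0.13, where 38.8% of all counted genes were lower and 34.4% higher. Vegfa, the angiogenic growth factor gene, was the 1 past 1.5-fold, beside 5.41% higher and 2.66% lower of all counted genes. Vegfa read 166 with butein, against 93.9 with DMSO (1.76-fold higher), and its second probe set read 150 with butein, against 45.6 with DMSO. With sulfuretin 11 were lower and 8 higher (median -0.02), beside 33.9% and 36.3% of all counted genes. With resveratrol 13 were lower and 1 higher (median -0.07), beside 36.6% and 33.5% of all. None of the 21 passed 1.5-fold with sulfuretin, beside 1.46% higher and 0.407% lower of all counted genes. With resveratrol none passed either, beside 0.356% and 0.401% of all.

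In the list of brown and beige markers and effectors 11 of 32 genes were counted in each comparison, and none passed 1.5-fold. Of all counted genes, 5.41% were that much higher and 2.66% lower with butein. These shares were 1.46% and 0.407% with sulfuretin, and 0.356% and 0.401% with resveratrol. The medians of the list were 0 in all comparisons, and 27 genes had a probe set. Cox8b, a brown fat subunit gene of cytochrome oxidase, read 242 with butein and 290 with sulfuretin, against 324 with DMSO, and 131 with resveratrol, against 164 with DMSO1. Cox7a1, another such subunit gene, read 26.4 with butein and 28.0 with sulfuretin, against 20.5 with DMSO, and 33.8 with resveratrol, against 42.9 with DMSO1. Both were named as examples after their values were seen. The beige marker genes Tmem26 and Tnfrsf9 and the brown marker gene Zic1 were near background on all arrays, while Tbx1, a beige marker, read 41.3 with butein and 46.6 with sulfuretin, against 41.3 with DMSO, and 54.4 with both resveratrol and DMSO1.

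The remaining lists also had medians near 0. In the UCP and CIDE families 5 of 6 genes were counted with butein. None passed 1.5-fold in any comparison, beside the shares of all counted genes given above for the brown and beige list. Cidec, the relative of Cidea found in white fat droplets, was chosen for its kinship and read 613 with butein and 816 with sulfuretin, against 863 with DMSO, and 1573 with resveratrol, against 1693 with DMSO1. Among 15 counted genes of BMP signalling, 2 were at least 1.5-fold higher with butein, beside 5.41% of all counted genes. These were the signal transducer gene Smad1 (1.55-fold, other probe sets 1.96-fold and 1.27-fold) and the receptor gene Acvr2a (1.53-fold, second probe set 2.84-fold). With sulfuretin 1 was at least 1.5-fold lower, beside 0.407% of all. This was the BMP target gene Id1, which read 305 with sulfuretin, against 487 with DMSO (1.60-fold lower). Its relatives in the list did not share this. Id2 read 203 with sulfuretin, against 144 with DMSO (1.41-fold higher), and Id3 read 381, against 429 (1.13-fold lower). None of the 15 passed with resveratrol. Of 5 counted genes of thyroid hormone activation and action, 1 was at least 1.5-fold lower with butein, beside 2.66% of all counted genes. This was the receptor gene Thra, which read 76.9 with butein, against 118 with DMSO (1.53-fold lower). Its other 2 probe sets were lower by less (log2 differences -0.20 and -0.29). No gene of this list passed 1.5-fold with sulfuretin or resveratrol.

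**Figure D5:**
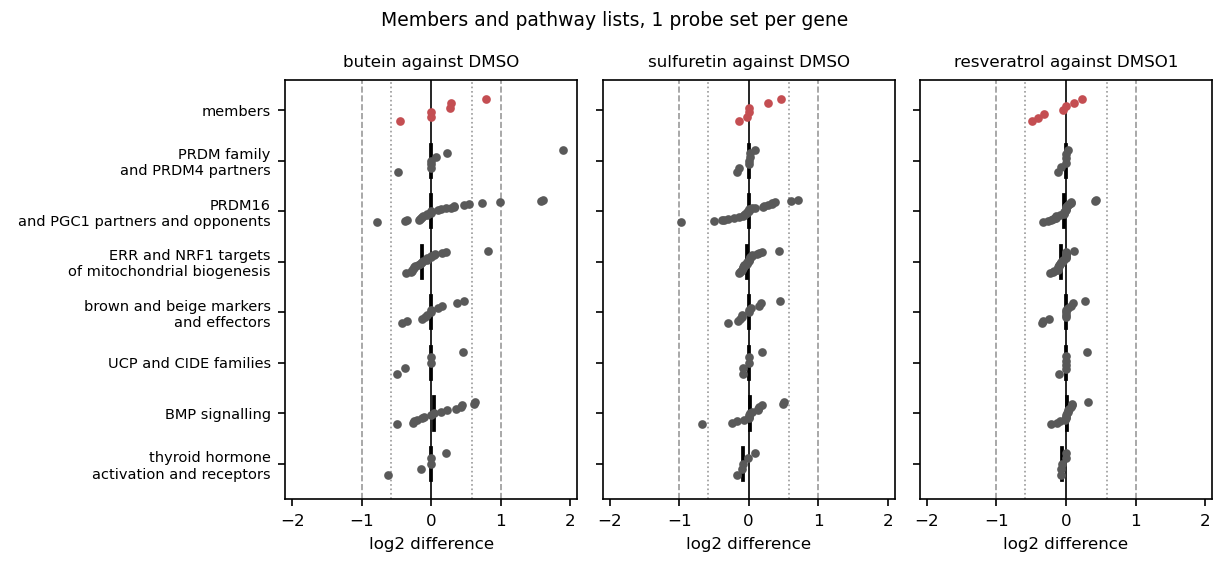
Log2 difference to the own solvent array (horizontal) of each counted gene, 1 probe set per gene, for the members (top row) and the 7 pathway lists (rows), with butein, sulfuretin and resveratrol from left to right, short bars at the list medians and dotted and dashed lines at 1.5-fold and 2-fold. Prdm2, Sirt1 and Cebpb lie past 2-fold with butein, and with resveratrol every gene shown lies inside 1.5-fold.

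Over the 7 lists together 89 genes were counted with butein. Of these 8 were at least 1.5-fold higher and 2 lower, or 8.99% and 2.25%, beside 5.41% and 2.66% of all counted genes. At 2-fold 3 were higher (3.37%), beside 2.18% of all. With sulfuretin 2 of 89 were higher and 2 lower at 1.5-fold (2.25% each), beside 1.46% and 0.407% of all. With resveratrol 0 of 88 passed, beside 0.356% and 0.401% of all. The lists were chosen with earlier results of these data known, and these shares were not tested. The doses of butein and sulfuretin are not given, so their values stand side by side without a comparison between the compounds.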

How the data were processed

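The deposited values were made by the authors with RMA, per the submitters' processing notes. Its version is not stated in the sources used here. The deposited intensities run over 1.40 to 9340 and were read as linear because of that range; the scale is not stated. Log2 was taken without a pseudocount. Of 45037 probe sets, 34945 name 1 gene, 932 several and 9160 are unnamed. A RefSeq table (GRCm38.p6) held the gene IDs of 34741 probe sets and gave their current symbols. Resveratrol was compared with the DMSO1 array, which the labels name as its control. The label of the DMSO array names no compound. Butein and sulfuretin were set against it because the sorted values nearly coincide within those sets of arrays. Within the compared pairs they differed by at most 0.14 on the log2 scale, against at most 0.96 between DMSO1 and DMSO. No test was made, as each group is 1 array. The number of arrays limits the precision.

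The members and lists were chosen with earlier results of these data known. Named were every member probe set, up to 2 highest and 2 lowest genes past 1.5-fold per list and comparison, the 5 genes nearest Prdm4 and adipocyte markers. Other genes named are said to be so, or illustrate a list. Alternatives were the scale, the control, the filter, the probe sets and a pseudocount of 8. The computation of differences and 2-fold calls was checked on simulated data with planted changes, which says nothing about replicate error. Python 3.11.15, numpy 2.4.6, pandas 2.3.3, statsmodels 0.14.6 and matplotlib 3.10.9 were used.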

Additional observations from a re-analysis of the deposited data

How the results depend on the processing

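No paired analysis was possible because each group has 1 array. With the own solvent array as control, centring, loess correction, joint quantile normalization, a pseudocount of 8 and the choice of probe sets kept each Prdm4 difference on its side of 1.5-fold. The control array changed more. With the other DMSO array as control, Prdm4 differed by 0.083 with butein, -0.23 with sulfuretin and 0.94 with resveratrol, where the median of all counted probe sets moved to -0.56, -0.54 and 0.67, and relative to those medians by 0.64, 0.31 and 0.27. With the mean of both DMSO arrays Prdm4 differed by 0.44 with butein, where the median of all was -0.29. With the other DMSO array on the joint scale Prdm4 differed by 0.68, 0.41 and 0.27, and 14.9%, 25.2% and 32.8% of counted probe sets were then at least as high.

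Member probe sets past 2-fold, 0 as reported, numbered 2, 1 and 2 with butein, sulfuretin and resveratrol under the other DMSO array, 3, 1 and 1 with that array on the joint scale, and 1 each with butein and sulfuretin under the mean of both. Past 1.5-fold, 1, 0 and 0 as reported, they numbered 5, 3 and 5, then 6, 5 and 4, then 2, 1 and 2. Pathway genes past 1.5-fold, 10, 4 and 0 as reported, numbered 34, 37 and 39, then 32, 17 and 19, and 17 with butein and 9 with resveratrol under the mean of both, and 6 with butein after a pseudocount of 8. With the other DMSO array Esrra probe set 2 reversed with sulfuretin (-0.66), Cidea with resveratrol (1.33) and the median of PRDM16 and PGC-1 partners with resveratrol (0.63), and with that array on the joint scale Ppargc1b reversed with sulfuretin (0.79). Only sign changes that ended past 1.5-fold are named as reversed. Smaller sign changes occurred too. With the other DMSO array Ppargc1a probe set 1 went from 0.28 to -0.11 with butein and with sulfuretin, though to 0.73 on the joint scale. With sulfuretin Ppargc1a probe set 2 went from 0.29 to -0.13 (0.49 on the joint scale) and Ppargc1b from -0.02 to 0.31. The cause was not tested beyond the shift of all probe sets given above.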
